A study of Mus musculus with 10 samples.

Results

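The distal H3K27me3 peaks with Mtf2 were peaks of the WT CD71+Ter119-/lo H3K27me3 list that lay on an autosome, did not overlap the 5 kb on either side of any protein-coding transcription start site (TSS), and shared at least 1 base with a WT CD71+Ter119-/lo Mtf2 peak. They numbered 2577, or 51.6% of the 4992 peaks of that list and 64.7% of its 3983 distal autosomal peaks. The other peaks of the list were 1406 distal autosomal peaks without Mtf2, 712 autosomal peaks near a TSS and 297 peaks on chromosomes X and Y. The members were selected on the peak calls of both lists, so their H3K27me3 and Mtf2 values are given as a description, with no test.

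The study asked how Mtf2, also called Pcl2, shapes H3K27me3 while fetal liver red cell precursors mature. Fetal liver cells of e14.5 WT and Mtf2-/- embryos were sorted into CD71+Ter119-/lo cells, called pro-erythroblasts, and CD71+Ter119high cells, called erythroblasts, and H3K27me3 was measured by ChIP-seq beside an IgG control in both genotypes, and Mtf2 in WT alone. Mutant embryos came from a gene-targeted ES cell line and lacked Mtf2 in every tissue, not in red cell precursors alone. Each condition had 1 deposited library, and the 6 peak lists held 50907 peaks in all. Whether an embryo or a pool of embryos stood behind a library was not given in the sources used here, and the opening line of the design text names H3K4me3 where the sample labels name H3K27me3.

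PRC2 is the enzyme complex that places methyl groups on lysine 27 of histone H3, and the trimethylated form, H3K27me3, marks repressed chromatin. Mtf2 is an accessory subunit that binds DNA rich in CpG and brings PRC2 to it, and the pair is best known at CpG-island promoters of developmental genes. Much of the DNA between genes is made of transposable elements, which exist in many near-identical copies and are mostly kept silent. A short sequencing tag from such a copy can match many places equally well.

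The WT CD71+Ter119-/lo H3K27me3 library held 18945784 unique tags and the Mtf2 library of the same cells 29009650, and both were called against the same IgG library of 16898992 unique tags. Unique tags made up 80.7% of the total tags of the H3K27me3 library and 34.6% of those of the Mtf2 library. Unique is here the peak caller's term for tags counted once after duplicates are left out. It does not mean tags that match 1 place in the genome. The Mtf2-/- CD71+Ter119-/lo H3K27me3 library was deeper, with 37026535 unique tags, and was called against a deeper IgG library of 39667267 unique tags. With 1 library per condition, no spread between replicates could be given. The 95% Wilson intervals below cover counting error only, and copies of a repeat are not independent of each other. No member had an FDR of 5% or less by the peak caller, and the lowest FDR among them was 5.09%. No peak of the Mtf2-/- CD71+Ter119-/lo H3K27me3 list or the WT CD71+Ter119high Mtf2 list had such an FDR either. All 28918 peaks of WT CD71+Ter119-/lo Mtf2 and all 5791 of Mtf2-/- CD71+Ter119high H3K27me3 did. In WT CD71+Ter119high H3K27me3, 1312 of 4490 did.

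Most members lay in a few repeated sequences. The 10 kb on either side of each summit was compared between members, with references taken in order of score. A member joined a group where an alignment of at least 150 bases to the shared stretch of the reference spanned its summit. In this way, 12 groups of at least 20 members took in 2420 members (93.9%), and 4 of these groups had at least 100 members each. The repeated unit of each of the 4 was read from the genome (NCBIM37, the assembly of mm9) and is called element A, B, C or D here. Element A spanned 7125 bases at chr1:105101743-105108867 and carried the same 372 bases at both ends, at 99.73% identity. Element B spanned 7001 bases at chr4:51311749-51318749, had no repeat shared by its ends, began with 5 whole tandem units of 208 bases and was 36.8% A on the strand read. Element C spanned 1885 bases at chr17:26943872-26945756 with end repeats of 398 and 396 bases at 96.98% identity. Element D spanned 5135 bases at chr12:19702407-19707541 with 516 identical bases at either end. All 4 reference copies were intergenic. Direct repeats at both ends are a known feature of LTR retrotransposons. No repeat annotation was used here, and the elements were not assigned to a named family.

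The terminal repeats show how the elements differ in CpG, the dinucleotide that Mtf2-PRC2 is known for. The first 200 bases of the terminal repeat of A, C and D are printed 5′ to 3′ with each CpG in capitals.
Element A, 11 CpG, chr1:105101743-105101942 (+ strand): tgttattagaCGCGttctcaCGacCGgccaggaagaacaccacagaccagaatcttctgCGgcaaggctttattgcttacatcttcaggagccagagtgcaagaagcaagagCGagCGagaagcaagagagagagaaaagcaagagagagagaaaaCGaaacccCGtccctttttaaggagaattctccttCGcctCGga
Element D, 5 CpG, chr12:19702407-19702606 (+ strand): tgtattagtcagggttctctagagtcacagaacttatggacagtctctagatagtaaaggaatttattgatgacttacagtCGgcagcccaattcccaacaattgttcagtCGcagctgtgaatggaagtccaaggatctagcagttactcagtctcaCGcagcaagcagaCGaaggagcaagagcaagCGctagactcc
Element C, 0 CpG, chr17:26943872-26944071 (+ strand): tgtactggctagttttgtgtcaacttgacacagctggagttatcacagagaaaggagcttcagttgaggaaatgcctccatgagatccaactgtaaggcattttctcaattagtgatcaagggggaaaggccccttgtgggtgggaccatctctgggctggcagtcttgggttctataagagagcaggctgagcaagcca
The terminal repeat of A held the most CpG of the 3 over this stretch and that of C held none. The whole of element A held 172 CpG, a CpG observed-to-expected ratio of 0.459, against 10 and 0.105 for C and 64 and 0.261 for D. In element B the CpG sat at the front. Its first tandem unit had 63.9% GC, and its whole tandem units together had a ratio of 0.670. The rest of the element had 40.4% GC and a ratio of 0.243.

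The next set shows how alike the members on A are at the same point of the element. The first line is the 120 bases around the summit of the highest-scoring member of all, nearest to Cdh20, with its CpG in capitals. The lines after it are the same stretch in the copies of A under 4 other members among the 10 with the highest score, read in the element's direction, with capitals at the bases that differ from the first line.
Cdh20 member chr1:105103294-105103413 (+ strand): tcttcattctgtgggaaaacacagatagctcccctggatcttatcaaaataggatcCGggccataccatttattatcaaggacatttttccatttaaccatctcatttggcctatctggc
B930007M17Rik member, 2 differences, chr3:139786600-139786719 (- strand): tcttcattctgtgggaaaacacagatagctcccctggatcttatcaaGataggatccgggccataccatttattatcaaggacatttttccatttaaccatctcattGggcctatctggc
Trim14 member, 2 differences, chr4:46528845-46528964 (- strand): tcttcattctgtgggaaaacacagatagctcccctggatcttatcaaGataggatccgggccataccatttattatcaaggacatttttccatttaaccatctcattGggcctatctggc
Odz3 member, 3 differences, chr8:50074971-50075090 (- strand): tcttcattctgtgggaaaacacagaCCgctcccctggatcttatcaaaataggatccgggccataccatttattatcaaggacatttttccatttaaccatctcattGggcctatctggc
Cr2 member, 4 differences, chr1:197151992-197152111 (- strand): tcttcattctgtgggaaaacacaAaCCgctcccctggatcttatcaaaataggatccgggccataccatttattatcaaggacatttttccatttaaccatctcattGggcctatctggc
Among the 8 other copies of A in the 10 highest-scoring members, 6 matched this stretch with at most 12 differences, and the farthest had 71. In the copy nearest to Cr2 the stretch lies outside the H3K27me3 peak, and in the one nearest to Trim14 partly so. The same letters thus stood almost unchanged on chromosomes 1, 3, 4 and 8. How the alignment placed tags with several equally good positions was not given in the sources used here, and the part of that placement in any result below was not tested.

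The summit lay in a copy of A in 1386 members (53.8%, 95% interval 51.9 to 55.7), of B in 332 (12.9%), of C in 245 (9.51%) and of D in 200 (7.76%), so 2163 members (83.9%, 82.5 to 85.3) lay on 1 of the 4. Copies of A made up 0.551% of autosomal bases, B 8.45%, C 0.450% and D 0.190%. Of the distal peaks of the same list without Mtf2, 605 (43.0%, 40.5 to 45.6) had their summit on the 4 elements, with 23 (1.64%) on A and 371 (26.4%) on B. Of the peaks near a TSS, 149 (20.9%) did, with 59 (8.29%) on A. Over all autosomal peaks of the list, 62.1% lay on the 4 elements, with 31.3% on A and 15.7% on B. The intervals of members and of distal peaks without Mtf2 did not overlap for A, which was far more frequent among members, nor for B, which was less frequent. The CD71+Ter119-/lo Mtf2 list, which the rule used, itself had 64.3% of its autosomal summits on the 4, with 14.4% on A and 35.8% on B. The share of members on the elements is therefore not independent of the rule. The elements were found in the members, and no test was made of these differences.

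**Figure D1:**
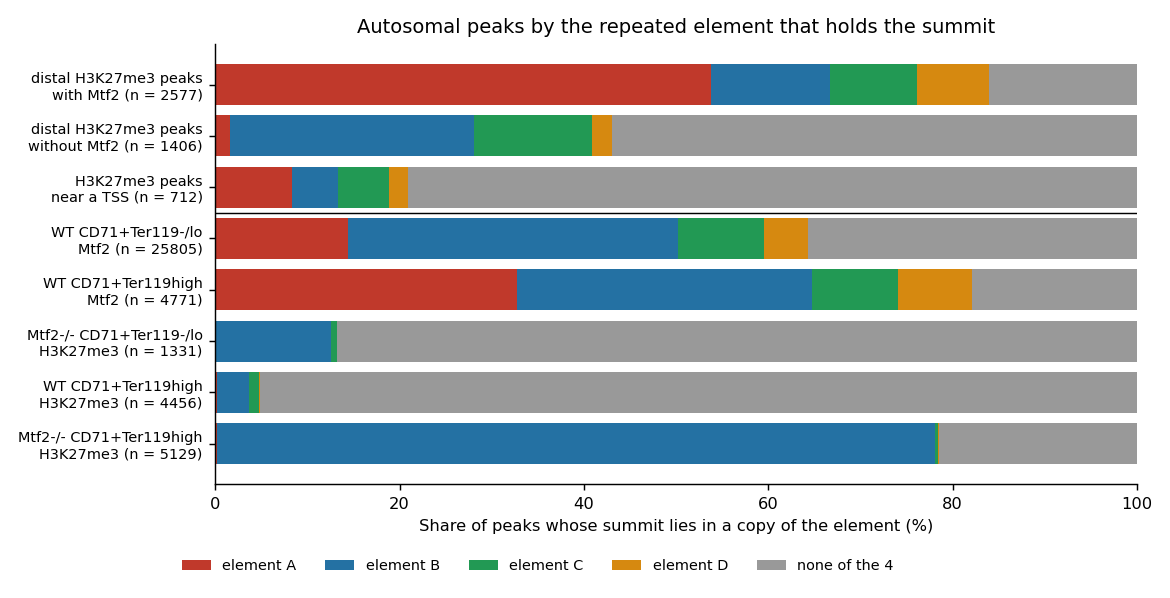
Share of autosomal peaks (horizontal axis, %) whose summit lay in a copy of element A, B, C or D or in none, for the members, the other peaks of the WT CD71+Ter119-/lo H3K27me3 list and the other 5 lists. Element A held 53.8% of members, 1.64% of distal peaks without Mtf2 and 0.224% of the peaks of the WT CD71+Ter119high H3K27me3 list.

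The sequence around the members was rarely unique. In the 1 kb around the summit, the median share of 32-base words that occur once in the genome was 4.12%, against 62.6% for distal peaks without Mtf2 and 96.8% for peaks near a TSS. A word of a member occurred a median of 564 times, and in 777 members (30.2%) no word occurred once. Only 201 members (7.80%, 6.83 to 8.90) had at least 50% unique words, compared with 947 distal peaks without Mtf2 (67.4%) and 562 peaks near a TSS (78.9%). By element, the median share of unique words was 1.75% on A, 8.35% on B, 8.97% on D, 28.7% on C and 22.6% in members on none of them.

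Just 6 members had at least 90% unique words, and all 6 were far from genes or inside an intron of one. The member nearest to Fbxl17 had 22 tags and a 24.6-fold H3K27me3 enrichment over IgG, with an Mtf2 enrichment of 26.1-fold. The member nearest to Hnf4g, a nuclear receptor gene, was the strongest of the 6 by score, at 151, with 47 tags and 16.4-fold. The member in an intron by Plekha1 had 35 tags and 18.3-fold enrichment. The others were nearest to Tpm3-rs7, Cox7b2 and Tnks, with 25, 25 and 37 tags. None of the 6 was overlapped by a CD71+Ter119high peak of H3K27me3 in WT or of Mtf2. They were picked for their unique sequence, outside the naming rule.

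**Figure D2:**
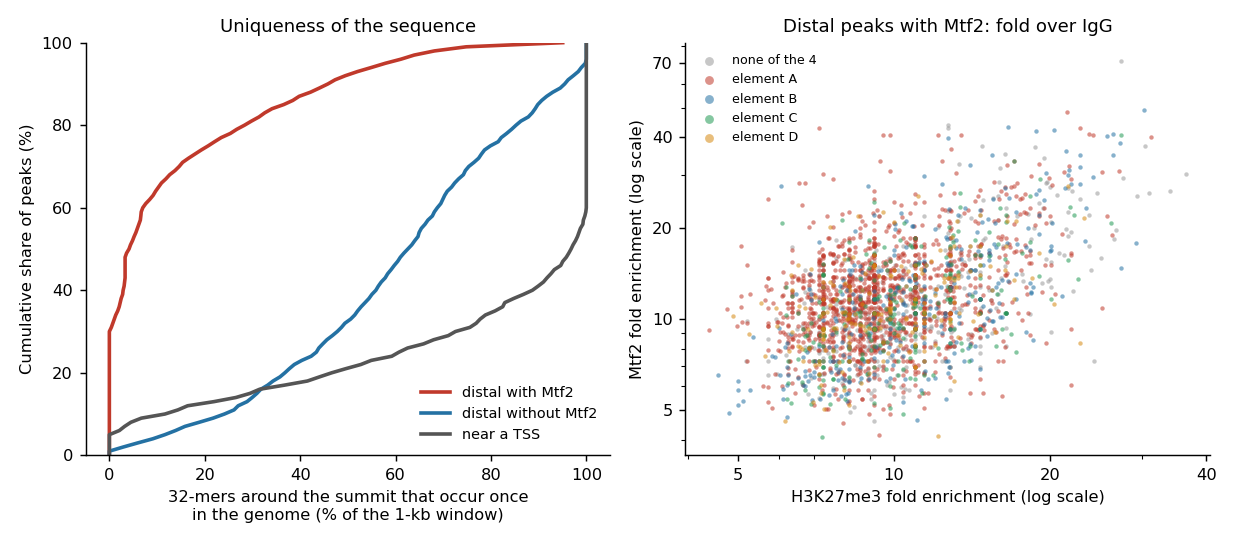
Left, cumulative share of peaks (%) by the share of 32-base words within 1 kb of the summit that occur once in the genome, for members, distal peaks without Mtf2 and peaks near a TSS. Right, H3K27me3 against Mtf2 fold enrichment over IgG (log scales) with 1 point per member, coloured by element. The median member has 4.12% unique words, and the elements overlap in both enrichments.

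The members were short, modest peaks under longer Mtf2 peaks. A member had a median of 26 tags (16 to 170), a length of 959 bases (205 to 4013), a 9.53-fold enrichment over IgG (4.4 to 36.5) and a score, which rises as the caller's p falls, of 61.0 (50.02 to 221). The Mtf2 peak on it had a median of 148 tags, a length of 3006 bases (330 to 13536), an 11.3-fold enrichment (4.1 to 70.97) and an FDR of 0.04%. Although 1 shared base was enough, Mtf2 peaks covered at least 50% of 2515 members (97.6%) and the whole of 1852 (71.9%), and the Mtf2 peak was the longer of the 2 in 2386 (92.6%). The summits of the 2 marks were a median of 420 bases apart, with the middle 50% of members between 26 and 1273 bases. In all, 2456 members lay under 1 Mtf2 peak, 120 under 2 and 1 under 3. These were 2409 distinct Mtf2 peaks, 8.33% of the Mtf2 list. Across the 2577 members the fold enrichments of the 2 marks were weakly related, with a Spearman rho of 0.37, and both were taken over the same IgG library.

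Some peaks lay close to either side of the limits that chose the members. Nearest inside the TSS limit were the members at 2310061C15Rik, Leo1 and Gm6309, whose nearest edges were 5003, 5034 and 5065 bases from a TSS, with 29, 23 and 60 tags. Just outside it lay peaks at Actl6a, Katnal1 and Lass4, 4916, 4882 and 4877 bases away, with 18, 16 and 27 tags. The members at Large, Fam135b and Atp6v1e1 shared 10, 12 and 15 bases with an Mtf2 peak. Peaks at Gm17391, G6pd2 and Gm8890 missed one by 4, 18 and 25 bases.

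Enrichment differed little between elements, while the extent of Mtf2 did. The median H3K27me3 enrichment was 9.14-fold on A, 11.0-fold on B, 9.80-fold on C, 9.53-fold on D and 10.5-fold on none of them, and the median Mtf2 enrichment was between 10.5-fold and 11.6-fold in all 5 sets. The Mtf2 peak had a median length of 4326 bases on A and 3032 on D, against 1715 on B and 1368 on C. Its median score followed the same order, with 463 on A, 284 on D, 110 on B and 109 on C.

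Fuller copies of A were overlapped by peaks more often than fragments, which also offer fewer bases to overlap. Of 4416 copies of A outside the TSS windows, 62.0% had a CD71+Ter119-/lo Mtf2 peak and 24.5% an H3K27me3 peak. The 760 near-complete copies, at least 90% of the element, had an Mtf2 peak in 751 (98.8%, 97.8 to 99.4) and an H3K27me3 peak in 455 (59.9%, 56.3 to 63.3). The 2022 partial copies had them in 1626 (80.4%) and 605 (29.9%). Copies of a terminal repeat alone, of which there were 1634, had them in 359 (22.0%) and 22 (1.35%), so the end repeat of A without its interior rarely carried the histone mark. Partial copies under 90% identical to the element had Mtf2 in 65.3% and H3K27me3 in 17.9% of 1041, against 95.5% and 43.0% of the 516 that were 90 to 95% identical. Because each copy's tags may belong to another copy, these shares describe the peak lists rather than single loci.

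On the other elements Mtf2 peaks were common on full copies and H3K27me3 peaks were not. For B, 9.91% of 102497 distal copies had an Mtf2 peak and 0.832% an H3K27me3 peak, and for its 1777 near-complete copies the shares were 67.7% and 5.06%. Near-complete copies of B with 98 to 100% identity had Mtf2 in 78.6% and H3K27me3 in 6.31%, and those with 90 to 95% identity in 28 and 0 of 100. For C, 13.9% of 16952 copies had Mtf2 and 2.80% H3K27me3, with 62.3% and 10.6% of its 1576 near-complete copies. For D, 53.4% of 4051 copies had Mtf2 and 7.21% H3K27me3. D had just 1 near-complete copy outside the TSS windows, and its 2544 partial copies had Mtf2 in 74.4% and H3K27me3 in 9.32%.

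**Figure D3:**
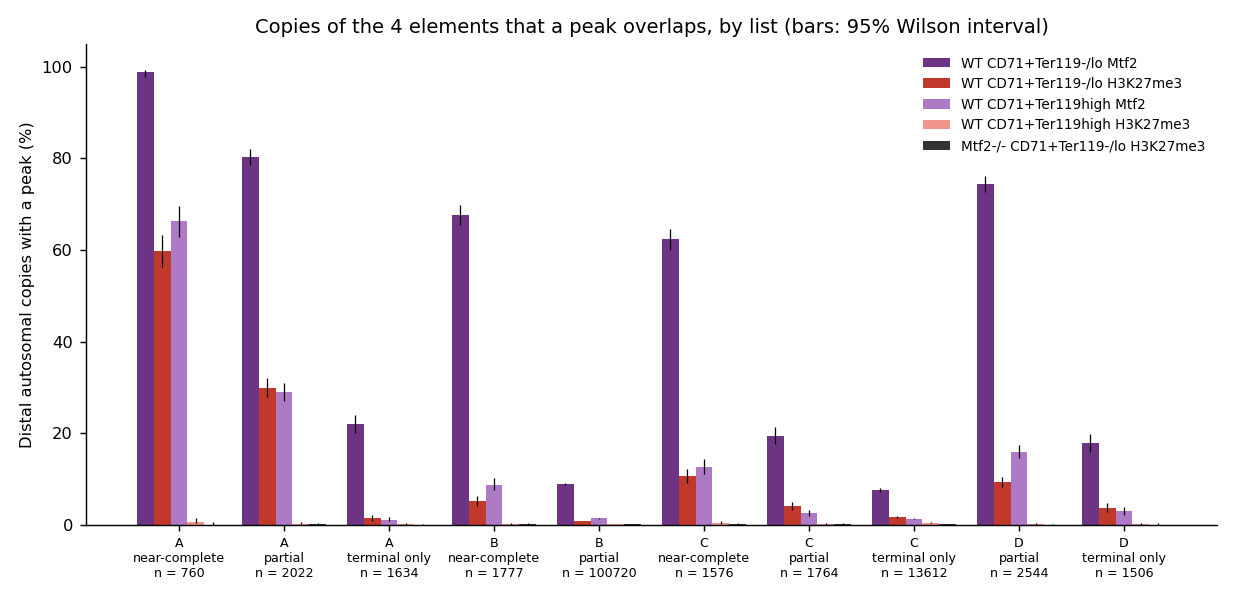
Share of distal autosomal copies (vertical axis, %) overlapped by a peak of each list, by element and kind of copy, with 95% Wilson intervals as bars. Near-complete copies of A stand out with H3K27me3 in 59.9%, against 5.06% of near-complete B and 10.6% of near-complete C, while Mtf2 covers over 60% of all 3.

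Peaks were not spread evenly along the elements. In 685 members on near-complete copies of A, the middle 50% of H3K27me3 summits lay between 23.8% and 74.0% along the copy, with a median of 41.3%. The Mtf2 summits of the same members had a median of 42.2%, and the bin that held most of them, 71 of 678, was centred 83.8% along the copy, where 8 of 685 H3K27me3 summits lay. An Mtf2 peak ran over the whole of the copy, to within 250 bases of both ends, in 35.2% of these members. Values here are per member, so a copy or Mtf2 peak with several members was counted once for each. Outside the TSS windows, 453 near-complete copies of A were overlapped by a member. In 87 members on near-complete copies of B, 81.6% of H3K27me3 summits and 79.1% of Mtf2 summits lay within the first 25% of the copy, the part with the CpG-rich tandem units, at a median of 697 and 687 bases from the start. In 145 members on near-complete copies of C, the median H3K27me3 summit lay 39.6% along, and an Mtf2 peak spanned the whole copy in 51.7%.

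**Figure D4:**
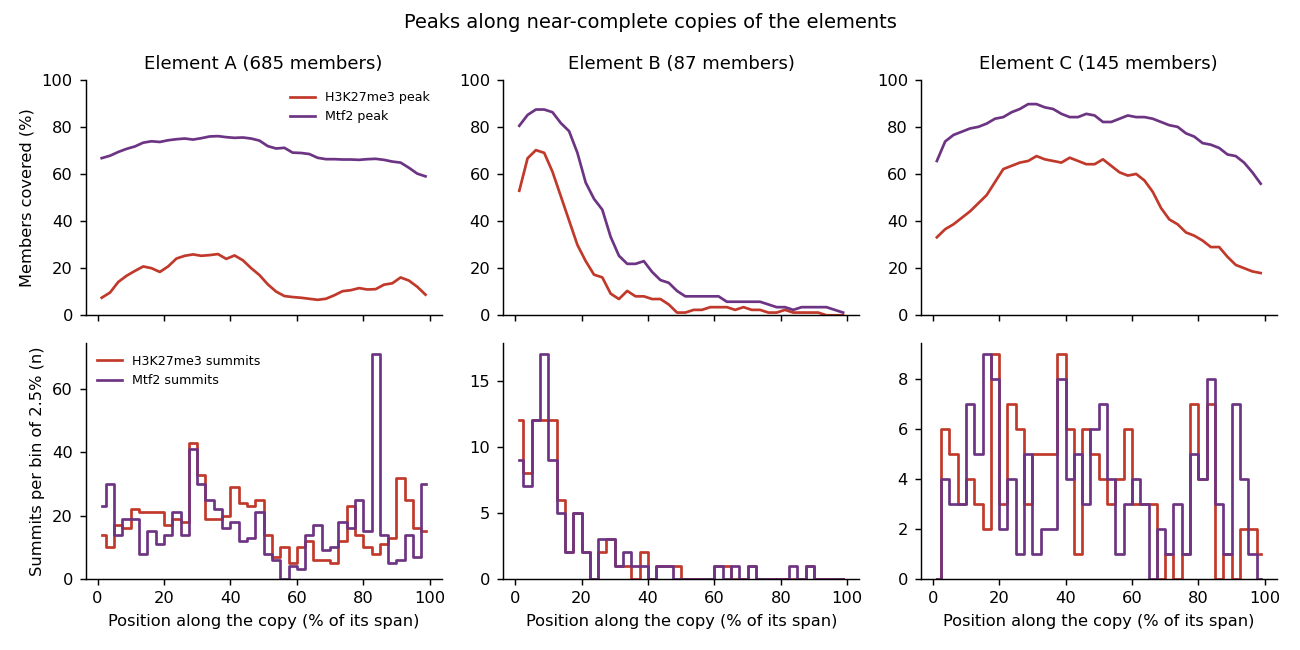
Peaks of members along near-complete copies of A, B and C (horizontal axis, % of the copy's span). The upper row gives the share of members covered by an H3K27me3 or Mtf2 peak, the lower row the number of summits in bins of 2.5%. A copy or Mtf2 peak with several members is counted once for each. On A the H3K27me3 coverage is highest before the midpoint, at up to 26.0%, and Mtf2 covers at least 58.98% of members throughout, whereas on B both marks crowd at the start.

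Next, the members were compared with the 4 lists that the rule did not use. No member shared a base with an Mtf2-/- CD71+Ter119-/lo H3K27me3 peak, a count of 0 of 2577. By 3 counts of the total this allows a share of up to 0.116%, and the upper Wilson limit was 0.149%. Over the whole list the share was 0.300%, 15 of 4992 peaks. Among distal peaks without Mtf2 it was 7 of 1406 (0.498%, 0.241 to 1.02), and among peaks near a TSS 8 of 712 (1.12%, 0.570 to 2.201). The share near 0 was thus common to the whole list rather than to the members. Although its library was deeper, the Mtf2-/- list was the shortest, with 1407 peaks, none of whose 1331 autosomal summits lay on A or D while 167 (12.5%) lay on B. That list held no peak with an FDR of 5% or less. Loss of Mtf2, the Mtf2-/- embryos' IgG library, tag depth and the preparation of each library cannot be told apart, because each condition had 1 library.

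In WT CD71+Ter119high cells, H3K27me3 peaks overlapped 24 members (0.931%, 0.627 to 1.38), where the whole list gave 5.81%. The share was 37 of 1406 (2.63%, 1.92 to 3.61) in distal peaks without Mtf2 and 227 of 712 (31.9%, 28.6 to 35.4) near a TSS, and the intervals of the 3 sets did not overlap. The 24 were unevenly placed. Of them, 16 lay in a single tandem array on chromosome 8, described below, and the other 2552 members had 8 overlaps (0.313%, 0.159 to 0.617). Of those 8, 2 lay on A, at Alk, a receptor tyrosine kinase gene, with 29 tags, and at Mgst2, a glutathione transferase gene, with 20. Mtf2-/- CD71+Ter119high H3K27me3 peaks overlapped 21 members (0.815%, 0.534 to 1.24), near the 0.901% of the whole list. By element, 16 of the 21 lay on B (16 of 332, 4.82%, 2.99 to 7.68), 2 on A, 1 on C, 0 on D and 2 on none. That list itself had 77.9% of its autosomal summits on B.

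The Mtf2 list of CD71+Ter119high cells held many of the members again. It overlapped 562 members (21.8%, 20.3 to 23.4), against 13.2% of the whole list, 16 distal peaks without Mtf2 (1.14%, 0.702 to 1.84) and 29 peaks near a TSS (4.07%, 2.85 to 5.79). That list had 5309 peaks, none with an FDR of 5% or less, while the CD71+Ter119-/lo Mtf2 list had 28918, all with such an FDR. Having a CD71+Ter119-/lo Mtf2 peak was part of the choice of members, so their higher share is not independent of the rule. Among members it was highest on A, with 450 of 1386 (32.5%, 30.1 to 35.0), and was 36 of 200 on D, 22 of 245 (8.98%) on C, 18 of 332 (5.42%) on B and 36 of 414 (8.70%) on none. Of near-complete copies of A, 504 of 760 (66.3%) had an Mtf2 peak in CD71+Ter119high cells and 5 (0.658%) an H3K27me3 peak there. Members with at least 50% unique words had a CD71+Ter119high Mtf2 peak in 9 of 201 (4.48%, 2.37 to 8.29), and the others in 553 of 2376 (23.3%, 21.6 to 25.02).

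**Figure D5:**
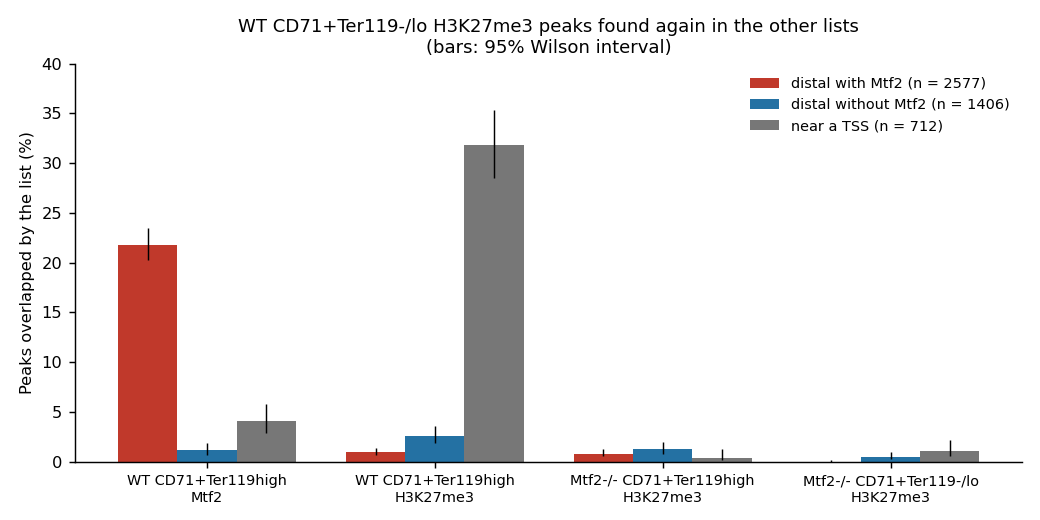
Share of WT CD71+Ter119-/lo H3K27me3 peaks (vertical axis, %) that shared at least 1 base with a peak of each of 4 other lists, for members, distal peaks without Mtf2 and peaks near a TSS, with 95% Wilson intervals as bars. Members were found again most often by CD71+Ter119high Mtf2, at 21.8%, and peaks near a TSS by CD71+Ter119high H3K27me3, at 31.9%.

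The longest run of members was a tandem array of 84.1 kb at chr8:126061309-126145384. It held 25 members, 15 with their nearest TSS at Gas8, a gene of the dynein regulatory complex of cilia, and 10 at Rhou. The highest-scoring member nearest to each had its summit in an intron, inside another protein-coding gene, Gm20388. The 25 members had H3K27me3 enrichments from 5.72-fold to 13.9-fold, with a median of 10.0-fold. The array aligned to itself over 83090 bases at a shift of 1711 bases with 97.6% identity, and was 63.0% GC. The stretch below surrounds a summit in the array, with CpG in capitals, and the next unit repeats it 1707 bases later with 0 differences.
Array, chr8:126085433-126085552 (+ strand): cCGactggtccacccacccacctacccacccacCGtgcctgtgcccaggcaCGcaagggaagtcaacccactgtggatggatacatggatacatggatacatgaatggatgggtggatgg
The array held 39 Mtf2 peaks in CD71+Ter119-/lo cells and none in CD71+Ter119high cells. H3K27me3 in WT CD71+Ter119high cells gave 14 peaks there, from 4.92-fold to 8.07-fold, and in Mtf2-/- CD71+Ter119high cells 2. A 32-base word of the array occurred a median of 49 times in the genome, so the 25 members are close to 1 sequence counted repeatedly.

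The members were mostly far from genes. Their median distance to a protein-coding TSS was 78709 bases (5338 to 2423250), with 179 (6.95%) within 10 kb and 1435 (55.7%) within 100 kb. Summits were intergenic in 1950 members (75.7%, 74.0 to 77.3), in an intron in 622 (24.1%) and in an exon in 5 (0.194%). The autosomal sequence outside the TSS windows was 62.3% intergenic, 35.6% intron and 2.11% exon. Distal peaks without Mtf2 were intergenic in 70.7% (68.3 to 73.0) and exonic in 1.56%. Members on B lay farthest out, at a median of 128751 bases, and those on C nearest, at 56400. They were found on all 19 autosomes, from 0.751 per Mb of distal sequence on chromosome 19 to 1.56 on chromosome 8.

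In protein-coding genes, 290 members on A had a host gene, and A ran in the host's direction in 213 of them (73.4%, 68.1 to 78.2). Near-complete and partial copies of A in such genes did so in 349 of 451 (77.4%, 73.3 to 81.0). Most members on A lie on such copies, and a copy with several members was counted once for each. The shares of members and of copies are therefore not independent. The direction of an element here is that of its reference copy on the plus strand and says nothing of its own transcription.

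Base composition differed between the elements. Members had a median GC of 44.8% in the 1 kb around the summit, against 43.3% in distal peaks without Mtf2, 49.1% near a TSS and 41.9% over the autosomes. Their median CpG observed-to-expected ratio was 0.332, against 0.139 without Mtf2 and 0.344 near a TSS. On A it was 0.400, on B 0.249, on C 0.102, on D 0.225 and in members on none of them 0.330. In 300 bases around the summit, on both strands, AGATAA, the motif of GATA factors, was found in 22.3% of members (20.7 to 23.9), 12.1% of distal peaks without Mtf2 and 19.1% of all 300-base autosomal windows. It was in 28.1% of members on A, 38.5% on D and 8.43% on B. CAGATG, the E-box bound by Tal1, was in 17.6% of members, 27.5% of distal peaks without Mtf2 and 21.8% of all windows. CCACACCC, a box of the kind bound by Klf1, was in 1.59% of members and 1.83% of windows, with 0 of 1386 on A. None of these 3 motifs contains another. The other motifs counted were GCGCGC, CACACACA, GAGAGAGA and TTTTTTTT. GCGCGC was in 0.543% of members, 1.49% of distal peaks without Mtf2 and 0.544% of all windows. For CACACACA the shares were 0.970%, 4.34% and 8.93%, for GAGAGAGA 7.33%, 4.13% and 5.18%, and for TTTTTTTT 1.40%, 6.19% and 12.3%. Copies of an element share their letters, so these shares count a few sequences many times.

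Genes were set beside the members only as the nearest protein-coding TSS, and no expression was used. The members had 1665 nearest genes, of which 1123 had 1 member, 506 had 2 to 4 and 36 had at least 5. After Gas8 with 15, the most members were nearest to Pcdh7, a protocadherin gene, with 11, Rhou with 10, Cntn5, a contactin gene, with 9, and Cdh20, a cadherin gene, with 8, the same number as Cdh7, Gm9257, Large and Tpm3-rs7. Of the 11 at Pcdh7, 10 lay on the 4 elements, and they were spread from 65865 to 1723577 bases from its TSS.

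The gene lists of the study's themes took few members. None of the 36 erythroid genes, 7 Cip/Kip and Ink4 inhibitor genes or 27 polycomb and H3K27 demethylase genes was nearest to a member, where these lists were nearest to 0.152%, 0.0230% and 0.0876% of distal bases. Stem, myeloid and lymphoid factor genes took 12 members (0.466%, 0.267 to 0.812), with 0.460% of distal bases. They took none of the 162 members left at a score of at least 100 in every list. The 12 included a member on A 33468 bases from Runx3, a Runt-domain factor gene, with 45 tags and 6.57-fold enrichment. One on C lay 540294 bases from Id2, an inhibitor of bHLH factors, with 42 tags and 12.1-fold. Others lay on A 847088 bases from Gata3, with 27 tags, and on B 287396 bases from Tox, with 63.

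Wnt pathway genes took 8 members (0.310%, 0.157 to 0.611) with 0.424% of distal bases, and no summit of the 8 lay inside a gene of the list. Of the 162 members left at a score of at least 100 in every list they took 1.23%. These were the members nearest to Tcf7l2 and Fzd3, and no interval was computed for that share. The strongest was on A in the neighbourhood of Tcf7l2, the gene of a transcription factor that acts with beta-catenin. It lay 83334 bases from the TSS and had 73 tags, a 15.6-fold H3K27me3 enrichment and a 9.27-fold Mtf2 enrichment. A member on A lay 47836 bases from the receptor gene Fzd3, with 34 tags and 14.1-fold. Another, on D, lay 38705 bases from the antagonist gene Sfrp1, with 28 tags, 9.53-fold and an Mtf2 enrichment of 22.6-fold. The member with its nearest TSS at Fzd5 lay 81883 bases away, in an intron of Plekhm3. It was on none of the elements and had 21 tags and 9.14-fold.

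Developmental transcription factor genes, which H3K27me3 is known to mark at their promoters, took 23 members (0.893%, 0.595 to 1.34) with 1.47% of distal bases. The member 198383 bases from Sox14 was the strongest, with 51 tags and 19.8-fold enrichment. Those named for Foxp1, Tbx18 and Sox5 lay 183772, 143375 and 358874 bases from the TSS and had 44, 28 and 31 tags. Of the 23, 20 lay on the 4 elements. Neuronal adhesion and guidance genes took 172 members (6.67%, 5.77 to 7.70) and 6.62% of distal bases, and ion channel and neurotransmitter receptor genes 65 (2.52%, 1.98 to 3.20) and 2.63%. Both shares were close to the share of sequence over all members. At a score of at least 100 in every list, the neuronal adhesion list took 10.5% of 162 members, with no interval computed. Olfactory, vomeronasal and taste receptor genes took 96 members (3.73%, 3.06 to 4.53) and 1.86% of distal bases, at a median distance of 19785 bases. Zinc finger genes took 34 (1.32%, 0.946 to 1.84) and 1.18%.

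Of the 10 members with the highest score, 9 lay on A and 1 on C, 8 were intergenic and 2 intronic, and 4 had a CD71+Ter119high Mtf2 peak. They had 60 to 78 tags and 9.52-fold to 25.2-fold enrichment, yet FDRs of 21.43% to 100%, since the FDR ranks a peak against peaks called with ChIP and IgG exchanged. The highest, at chr1:105102985-105105003, had a score of 221 and 64 tags and lay 1561752 bases from Cdh20. The member nearest to Fndc3a had 78 tags, and the one nearest to Cntn5 had 75 tags and 25.2-fold enrichment. The only one on C, at chr17:26943831-26945983, lay 17657 bases from Bnip1 and had 61 tags. The others were nearest to B930007M17Rik, Odz3, Cr2, Trim14, Tcf7l2 and Gm5581.

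By Mtf2 enrichment the leading members were different ones. The highest value, 70.97-fold with 150 Mtf2 tags, was over a member of 26 H3K27me3 tags and 27.4-fold enrichment nearest to Lmbr1, on none of the 4 elements. The sequence there was still repeated, with 6.08% unique words and a median of 2251 genome copies of a word. Next came a member on B nearest to Gp49a, at 49.1-fold, and one on A nearest to Ncam2, a neural cell adhesion gene, at 48.3-fold, which was also overlapped by CD71+Ter119high Mtf2. The rest were nearest to A330008L17Rik, Ptprn2, Uchl5, Nmbr, Insig2 and, with 2 members under 1 Mtf2 peak, A430078G23Rik, from 41.9-fold to 43.9-fold. Of these 10 members, 3 were on A, 4 on B and 3 on none. Among the 3 on none, the member nearest to Uchl5 had 11.3% unique words and that nearest to A330008L17Rik 47.7%. The 3 longest members, of 4013, 3945 and 3628 bases, were nearest to C130026I21Rik, Oprk1 and Apba2, with 170, 151 and 162 tags.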

How the data were processed

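ChIP-seq peaks of fetal liver cells were read from 6 lists, 1 per ChIP library. Alignment by the authors used Bowtie 2.2.3 and mm9, with masking that the sources do not explain. Peaks were called with MACS 1.3.7 at a p cutoff of 1e-05 against IgG. The deposited tag counts are the authors' raw numbers of tags per peak, the deposited fold is the authors' ratio of ChIP to local IgG, the deposited score is the caller's scaled −log10 of p, and the deposited FDR is a percent. The methods mention duplicate experiments, and whether these were pooled is not said.

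TSS, exons and genes came from GENCODE M1 (NCBIM37). Overlaps, distances, 32-base words and motifs were computed with Python 3.11.15, pandas 2.3.3, numpy 2.4.6, scipy 1.17.1 and numba 0.67.0. The overlap and distance steps were tested on simulated intervals, and the search for repeat copies on simulated sequences. The counts of 32-base words and motifs were not tested in this way. Repeat copies were found with blastn 2.17.0+, word size 28, E-value limit 1e-30 and alignments of at least 150 bases. No test was made, since each condition had 1 library and the members were chosen by peak calls.

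Members and gene lists were chosen with earlier results of these data known. The elements, the array and the most unique members were chosen after their sequences were seen, outside the naming rule. That rule took the 10 members with the highest score, the 10 with the highest Mtf2 fold, the 3 longest, the 5 genes nearest to the most members, up to 4 genes per list and the members at each limit. The IgG libraries entered only through the authors' values.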

Additional observations from a re-analysis of the deposited data

How the results depend on the processing

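Of 196 values computed under 17 alternatives, 150 stayed within the interval of the reported value or, for counts, within 1.5 times it, and 46 moved, among them 5 of 70 gene list shares, all at a score of at least 100. These were 0.0% for stem, myeloid and lymphoid factors, 1.23% for Wnt, 10.5% for neuronal adhesion, 2.47% for olfactory and related receptors and 0.617% for zinc finger genes. They are shares of 162 members, whose own counting error was not taken into account. No member was overlapped by an Mtf2-/- CD71+Ter119-/lo H3K27me3 peak under any alternative run for that share. With a score of at least 100 in every list, 162 members remained, with 148 nearest genes, a length of 1495 bases, H3K27me3 and Mtf2 enrichments of 12.79-fold and 12.8-fold, a TSS distance of 104022 bases, 44.5% GC and a CpG ratio of 0.370. Elements A to D then held 87.7% and A 76.5%, and the overlaps were 1.85% for WT CD71+Ter119high H3K27me3, 0.0% for Mtf2-/- CD71+Ter119high H3K27me3 and 13.6% for CD71+Ter119high Mtf2. Requiring the Mtf2 summit inside the peak left 1463 members, with a length of 1028 bases, 10.57-fold and 11.56-fold enrichment, a CpG ratio of 0.302 and 7.73% unique words. A to D held 80.0% and A 40.3% of these, with overlaps of 1.299% for Mtf2-/- CD71+Ter119high H3K27me3 and 18.4% for CD71+Ter119high Mtf2. TSS windows of 1 and 10 kb gave median distances of 72460 and 91429 bases. TSS of all annotated genes lowered the WT CD71+Ter119high H3K27me3 overlap to 0.326%, peaks within 1 kb raised that of CD71+Ter119high Mtf2 to 29.6%, and the 1407 top-scoring peaks of each other list gave 0.504%, 0.272% and 9.70% for WT H3K27me3, Mtf2-/- H3K27me3 and Mtf2 in CD71+Ter119high cells. Whole peaks had 44.9% GC and 300-base windows a CpG ratio of 0.306.

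Another 4 alternatives were chosen after seeing the data. Without the chromosome 8 array, WT CD71+Ter119high H3K27me3 overlapped 0.313%. In members with at least 50% unique words, the overlaps were 0.498%, 0.498% and 4.48% for WT H3K27me3, Mtf2-/- H3K27me3 and Mtf2 in CD71+Ter119high cells, and in members on none of A to D 4.59%, 0.483% and 8.70%. Of the 19 members behind the 4.59%, 16 were those of the array. With copies at least 90% identical, A to D held 74.4% and A 46.8%. The cause of the other shifts was not tested.

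An FDR of 5% or less left no member and 1 peak of the list, so it gave no value, and the repeat-masked share was not run without a masked genome. No paired analysis was possible because each condition had 1 library, and no replicate was left out. A member had a median of 26 tags and the weakest 16, and the part of depth in the absence of overlap was not tested.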
